A study of Homo sapiens with 6 samples.

Results

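The m6A peaks that lie on noncoding transcripts in HEK293T cells are the subject here. N6-methyladenosine (m6A) is an adenosine methylation of RNA that an antibody can enrich, and a peak is a stretch of transcript with more reads in the enriched than in the input library. The deposited m6A table names a RefSeq transcript for each peak, and a peak was counted as noncoding where the accession begins with NR_, the RefSeq prefix for RNAs with no annotated protein. This gave 606 of 26475 peaks, on 315 of 9282 transcripts and 314 genes. The remaining 25869 peaks lie on 8967 coding transcripts. The rule used only the accession, so peak numbers, positions, motifs, ratios and CLIP data were not used to choose members.

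HEK293T is an established human embryonic kidney line. RNA was taken after siRNA knockdown of TRMT10A, a tRNA guanosine methyltransferase, and after a control knockdown. Each arm gave 1 library enriched for m6A and 1 input library. RNA contacts of TRMT10A in the same line were read from 2 replicates of CLIP, which crosslinks and precipitates a protein with its RNA, and which held 342690 and 496030 conversion events. The siRNA field of the CLIP samples also names TRMT10A, and leaves unsaid whether those cells were depleted of it. The m6A table has 1 list of peaks and 1 ratio of knockdown over control for both arms, with no value per library, so depth is unknown and no ratio has a replicate check. No expression values were used here, so the line could not be checked against its markers.

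As background, m6A in messenger RNA is placed by the METTL3-METTL14 complex in the context named DRACH in the letter code of mixed bases, of which GGACU is a preferred form. Long noncoding RNAs carry the same mark, and MALAT1, a nuclear RNA of splicing speckles, is a standard example. Host genes of small nucleolar RNAs (snoRNAs) are spliced RNAs whose introns release snoRNAs, the guides of ribosomal RNA modification, while the spliced exons often have no known protein. Processed and duplicated pseudogenes resemble a coding parent, and readthrough transcripts join the exons of neighbouring genes.

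The following windows show GGACU, written with T for U, in peaks whose listed motif positions could be placed on a sequence. They were chosen because they tie a ratio to a named transcript. They are from GENCODE release 29 transcripts (GRCh38), 5′ to 3′, with 12 bases on either side and the motif in capitals. MALAT1 on the plus strand of chromosome 11 had 4 such motifs, which lie in 4 of its peaks and are the only GGACT inside its 8 peaks, of 13 in the transcript.
MALAT1, chr11:65499364-65499368, adenosine 1605: aattgagagaaaGGACTacagagccccga
MALAT1, chr11:65500479-65500483, adenosine 2720: ttgatgaagctaGGACTgaggagcaagcg
MALAT1, chr11:65501666-65501670, adenosine 3907: gaacaccttcagGGACTggagctgctttt
MALAT1, chr11:65505322-65505326, adenosine 7563: tattagtaatgaGGACTtgcctcaactcc

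TTN-AS1, antisense to the titin gene, is shown because 3 motifs lie in its only peak, on the plus strand of chromosome 2. FENDRR, a long noncoding RNA known from mouse heart and body wall development, is shown for motifs in a pair of separate peaks on the minus strand of chromosome 16. The positions after the names are those of the motif in the genome.
TTN-AS1, chr2:178539634-178539638: ccctcacagagcGGACTtggatgtcatca
TTN-AS1, chr2:178539669-178539673: agtggcccttctGGACTgttgggacttcc
TTN-AS1, chr2:178539678-178539682: tctggactgttgGGACTtcctatcaccct
FENDRR, chr16:86476861-86476865: ccatgccctcctGGACTcaggtaagactg
FENDRR, chr16:86476000-86476004: tgcatttgaggtGGACTgaacacagccag

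The next windows are shown because motifs of different peaks have the same surroundings. NBPF25P, a pseudogene of a family built from repeated domains, had the same 29-base window in separate peaks on the minus strand of chromosome 1.
NBPF25P, chr1:145578906-145578910: tgaagtcttgcaGGACTcactggatagat
NBPF25P, chr1:145577344-145577348: tgaagtcttgcaGGACTcactggatagat

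Noncoding transcripts carried fewer peaks than coding ones. Of the 315, 164 had 1 peak (52.1%, 95% Wilson interval 46.6 to 57.5), 78 had 2, 35 had 3, 21 had 4 and 17 had 5 or more (5.40%, 3.40 to 8.47). Of the 8967 coding transcripts, 28.4% had 1 peak (27.5 to 29.4) and 16.9% had 5 or more (16.1 to 17.7). The mean was 1.92 peaks per noncoding and 2.88 per coding transcript, and the medians were 1 (95% interval 1 to 2) and 2. Intervals cover counting error only, and no test of this difference was made, since all peaks come from 1 list.

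Length moved with these numbers. Where a GENCODE transcript matched the accession and reached past its last peak (208 noncoding and 8352 coding transcripts), median lengths were 2429.5 bases (95% interval 2256 to 2709) and 3297 bases (3226 to 3359). Up to 1000 bases the mean was 1.10 peaks for 20 noncoding and 1.09 for 272 coding transcripts. From there to 2000 bases it was 1.31 and 1.54, from 2000 to 4000 bases 1.87 and 2.40, and above 4000 bases 2.77 for 39 noncoding and 4.05 for 3210 coding transcripts. The shortest transcripts were thus alike, and the gap was wider in the longer ones. Peaks covered 9.74% of noncoding and 13.8% of coding bases. A single transcript, KCNQ1OT1, gave 91667 of the 687623 noncoding bases with only 602 under peaks, which lowers the noncoding share. Noncoding peaks were also narrower, with a median of 161 bases (159 to 165) against 176 (175 to 177).

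**Figure D1:**
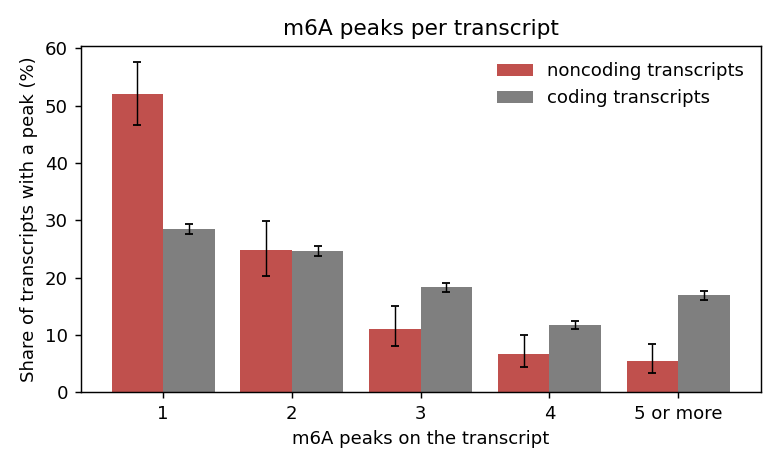
Share of transcripts (y axis, %) by number of m6A peaks (x axis) among 315 noncoding and 8967 coding transcripts that have a peak. Bars are shares and lines 95% Wilson intervals. A single peak was found on 52.1% of noncoding and 28.4% of coding transcripts.

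MALAT1 had most peaks, 8, over 1390 bases or 16.0% of its 8708-base transcript. They ran from 1331-1430 and 1541-1750 through 1871-2061, 2669-2885, 3859-4028, 4887-5020 and 7441-7565 to 7725-7967. The first began at base 1331, and 1 gap of more than 2000 bases lay between the sixth and the seventh. TUG1, a conserved RNA linked to chromatin and cytoplasmic roles, had 5 peaks over 1171 bases, including 2071-2460 and 6829-6987. Both transcripts were thus marked in several separate stretches and not in 1 block.

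Other nuclear or architectural RNAs carried several peaks. NEAT1, the scaffold of paraspeckles, had 4, at 391-579, 649-868, 986-1270 and 1604-1730. NORAD, a cytoplasmic RNA that binds Pumilio proteins, had 4, at 143-331, 492-691, 2491-2590 and 3827-4029. KCNQ1OT1, an antisense RNA that silences an imprinted domain, had 4, all between bases 60034 and 64470 of a GENCODE transcript of 91667 bases. Of these 4, 2 lie in sequence shared with coding transcripts, as treated below. OIP5-AS1 had 3, all within its first 714 bases of 8829. The nuclear and architectural list had peaks on 8 of 13 entries, 31 peaks in all, with PVT1 (2 peaks) and FIRRE (1), an RNA of nuclear organisation, as the others.

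Of the further lists, the imprinted RNAs had 2 of 10 entries with a peak, KCNQ1OT1 and H19, the latter with 1 peak at 911-1120. The X-inactivation list had 0 of 4. The miRNA host list had 4 of 25, which were DLEU1 (2 peaks), H19, MIR22HG and MIR31HG (1 each). DLEU1 lies next to the miRNA host DLEU2 and is itself no usual host. LOC646762, named MIR550A3HG in the current RefSeq table, had 6 peaks and was not on that list. The list of decoy and antisense RNAs studied in cancer lines had 8 of 25 with 12 peaks, led by LINC01138 (3 peaks). HOTAIR, which is antisense to HOXC genes, had 1 peak at 583-740.

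**Figure D2:**
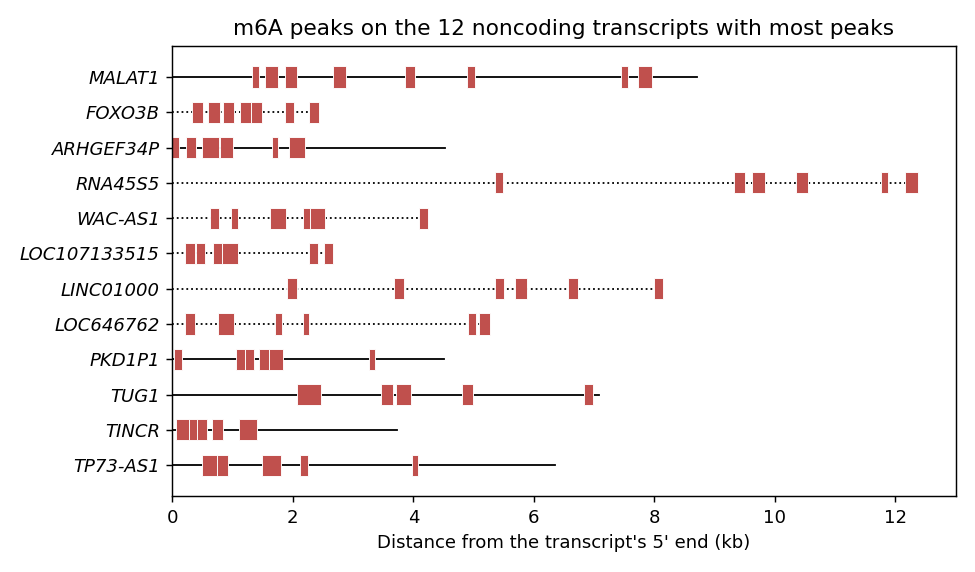
Position of m6A peaks (red boxes) by distance from the 5′ end in kb (x axis) on the 12 noncoding transcripts with most peaks (y axis). Solid lines run to the GENCODE transcript length, and dotted lines run to the last peak where no matching length was used. MALAT1 had 8 peaks and FOXO3B 7.

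By class, pseudogenes gave most peaks, 215 on 117 transcripts (35.5% of the 606, 95% interval 31.8 to 39.4). Long noncoding RNAs outside the other classes gave 179 on 92 (29.5%), readthrough transcripts 91 on 39 (15.0%) and antisense RNAs 76 on 42 (12.5%). The small classes were snoRNA hosts with 16 peaks on 12 transcripts, structured RNAs with 16 on 6 and miRNA hosts with 10 on 5. A further 3 peaks lay on 2 transcripts with no name in the table. Classes rest on names and descriptions, so that a transcript such as TUG1 counts as long noncoding although the current RefSeq table lists it as protein coding.

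Mean peaks per transcript were 1.84 for pseudogenes, 1.95 for long noncoding, 1.81 for antisense and 2.33 for readthrough transcripts, with no test between classes. snoRNA hosts stood at 1.33, with no host above 2. Among pseudogenes FOXO3B, a copy of the transcription factor gene FOXO3, had 7 peaks, ARHGEF34P and PKD1P1 had 6 each, and ZNF271P had 5. All 6 peaks of ARHGEF34P and all 6 of PKD1P1 lie in sequence shared with coding transcripts, as treated below. FOXO3B had no matched sequence and could not be searched for this. Among antisense RNAs WAC-AS1 had 6, TP73-AS1 had 5 and FGD5-AS1 had 4. LINC01000 had 6, spread from base 1911 to 8152, and TINCR, an RNA of epidermal differentiation, had 5, all from base 56 to 1408. LOC107133515, a readthrough of pseudogenes, had 6.

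Some accessions are noncoding in name more than in their gene. Of the 606 peaks, 98 on 42 transcripts belong to genes that RefSeq or GENCODE lists as protein coding or that have coding lines in the same table. Readthrough transcripts made up 64 of these 98. FOXO3B (7 peaks), TUG1 and TINCR (5 each) and SPECC1L-ADORA2A (5), a readthrough into the adenosine receptor gene ADORA2A, led them. Without these genes 508 peaks remained.

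Many peaks lie in sequence shared with a coding transcript, where reads cannot be told apart by the peak list. Of 382 noncoding peaks with a sequence, 144 (37.7%, 33.0 to 42.7) matched a protein-coding transcript under another gene symbol at 95% identity or more over at least 80% of the peak. The share was 91.0% for readthrough transcripts (61 of 67, 81.8 to 95.8) and 52.3% for pseudogenes (68 of 130, 43.8 to 60.7). It was 9.01% for long noncoding RNAs (10 of 111, 4.97 to 15.8) and 7.41% for antisense RNAs (4 of 54, 2.92 to 17.6). Of the 144, 129 matched a gene that has coding peaks in the table, and 78 overlapped a coding peak at the matching place. Both ends agreed within 10 bases in 5 of these 78.

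The near-identical copies GTF2IP1 and GTF2IP4, pseudogenes of the transcription factor gene GTF2I, show such a case. GTF2IP1 had peaks at 427-620, 2369-2530, 2596-2776 and 3143-3443. GTF2IP4 had them at 432-625, 2374-2535, 2601-2781 and 3148-3448, so each peak had the same width at a constant shift. All 8 matched GTF2I. The search found such a copy in the peak of another noncoding transcript for 15 of the 382 peaks, among them HCG11 with NORAD. It may miss some, since SLX1A-SULT1A3 and SLX1B-SULT1A4, each with a peak at 198-373, were not among the pairs found.

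On transcripts whose peaks all lay within the GENCODE length, peaks were most frequent toward the 5′ end in both noncoding and coding RNAs. The median relative position of peak centres, from 0 at the 5′ end to 1 at the 3′ end, was 0.344 for 382 noncoding peaks (95% interval 0.302 to 0.394) and 0.320 for 23682 coding peaks (0.314 to 0.324). The middle 50% of noncoding peaks ran from 0.153 to 0.628. The first 10% of the transcript held 14.9% of noncoding peaks (11.7 to 18.8) and the last 10% held 3.93% (2.39 to 6.38). For coding peaks these shares were 17.0% and 2.54%. Of all 606 noncoding peaks, 56 started within the first 100 bases (9.24%, 7.18 to 11.8), compared with 6.30% of coding peaks (6.02 to 6.61).

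Classes differed in their medians, with 0.224 for 14 peaks of snoRNA hosts, 0.266 for 54 of antisense, 0.308 for 111 of long noncoding, 0.339 for 67 of readthrough and 0.406 for 130 of pseudogene transcripts. Peaks of 1 transcript share their source, and these medians were not tested against each other. Peaks on accessions without a matching GENCODE transcript (152 of 606) and on transcripts with a peak past the GENCODE end are not in these values. The latter exclusion falls on transcripts with peaks far toward the 3′ end, so it can lower the shares there. It left 382 of 454 matched noncoding and 23682 of 25300 matched coding peaks, so it weighed more on noncoding ones.

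**Figure D3:**
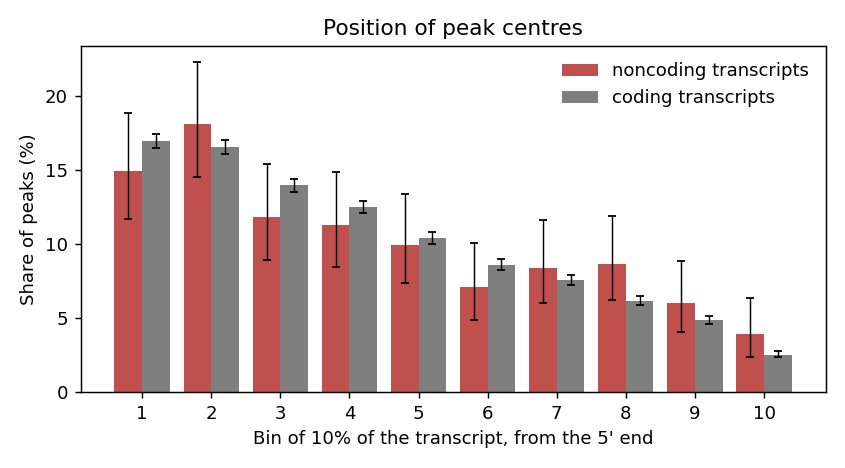
Share of peak centres (y axis, %) in bins of 10% of the transcript from the 5′ end (x axis) for 382 noncoding and 23682 coding peaks, with 95% Wilson intervals. Shares were high in the first bins and lowest in the last, at 3.93% and 2.54%.

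The deposited table lists GGACU positions with a region, and 130 lines carry the region Noncoding, with 152 motifs in all. The region was read as marking noncoding transcripts, and each of these lines has at least 1 noncoding peak that spans its motifs. A single line can have up to 68 such peaks, so this is a weak check of that reading. On it, the 130 lines give 21.5% of the 606 noncoding peaks a listed GGACU (95% interval 18.4 to 24.9). The share was 23.9% of coding peaks (23.4 to 24.4). Motif density was close as well, at 1.44 per kb under noncoding and 1.46 per kb under coding peaks. Of the 130, 18 listed 2 or more motifs (13.8%, 8.94 to 20.8), against 15.4% among coding lines.

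Sequence read in GENCODE transcripts gave a similar share, but GENCODE and RefSeq starts often differ, so some peaks may be read at shifted places. Of the 130 lines, 24 with a single motif and 2 with several matched the GGACT positions of exactly 1 noncoding peak. Lines with ambiguous positions were not counted as matches. GGACT lay in 78 of 382 noncoding peaks (20.4%, 16.7 to 24.7), whereas 14.8% of all 162-base windows of the same transcripts, the median width of these peaks, held it. GGAC with any next base lay in 57.9% of peaks (52.8 to 62.7) and 42.6% of windows. DRACH lay in 94.5% of peaks (91.7 to 96.4) and 94.8% of windows, so its presence is too common to compare. Its density was 20.7 per kb under noncoding peaks and 20.5 per kb over the same transcripts, while that of GGACT was 1.36 and 1.03 per kb. Only the strand of the transcript was read, and every GGACT is also counted as GGAC and as DRACH. Long transcripts weigh more in the windows and transcript densities, and KCNQ1OT1 alone holds 91667 of the 687623 noncoding bases. Coding peaks had GGACT in 22.9% and their windows, of 176 bases, in 15.4%.

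The ratio of m6A enrichment in TRMT10A knockdown over control was centred near 0 for noncoding peaks with a motif. In the authors' deposited table the 130 Noncoding lines had a median log2 ratio of 0.02 (95% interval -0.12 to 0.32), from -2.26 to 2.56, and 69 were above 0. Of the 130, 17 passed 2-fold in the higher direction (13.1%, 8.33 to 19.9) and 10 passed 2-fold in the lower direction (7.69%, 4.23 to 13.6). Over all 26475 lines of the authors' deposited table the shares were 16.2% and 5.79%, and the median was 0.17. The 6184 lines with a motif on a coding transcript, which are the like set, had a median of 0.02 with 11.9% higher (11.1 to 12.7) and 8.09% lower (7.43 to 8.79). The noncoding shares thus lie near both backgrounds.

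By region, the noncoding median lay between those of coding and 3′ UTR motifs in the authors' deposited table. The medians were 0.23 for 533 lines with a 5′ UTR motif (0.14 to 0.32), 0.10 for 4079 coding-sequence lines (0.07 to 0.12) and -0.26 for 1572 3′ UTR lines (-0.30 to -0.21). The noncoding interval overlapped the first 2 of these and not the third. No test of the conditions can be made with 1 library per arm.

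The overlap label of the table moved with the ratio. In the authors' deposited table the noncoding lines comprise 106 called common and 24 called unique, with no definition of these words in the file. The common lines had a median log2 ratio of -0.11 (-0.21 to 0.03), with 11 past 2-fold higher and 10 past 2-fold lower. The unique lines had a median of 0.64 (0.42 to 0.95), with 22 of 24 above 0, 6 past 2-fold higher and 0 past 2-fold lower. Unique lines of the other regions in the authors' deposited table had higher ratios than common ones too, with medians of 1.09 for 5′ UTR, 0.84 for coding-sequence and 0.63 for 3′ UTR motifs and 53.7%, 40.8% and 29.4% past 2-fold higher. The unique share was 18.5% (12.7 to 26.0), near the 16.9% of coding lines with a motif (16.0 to 17.9). The sources used here do not say whether the label rests on the ratio.

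**Figure D4:**
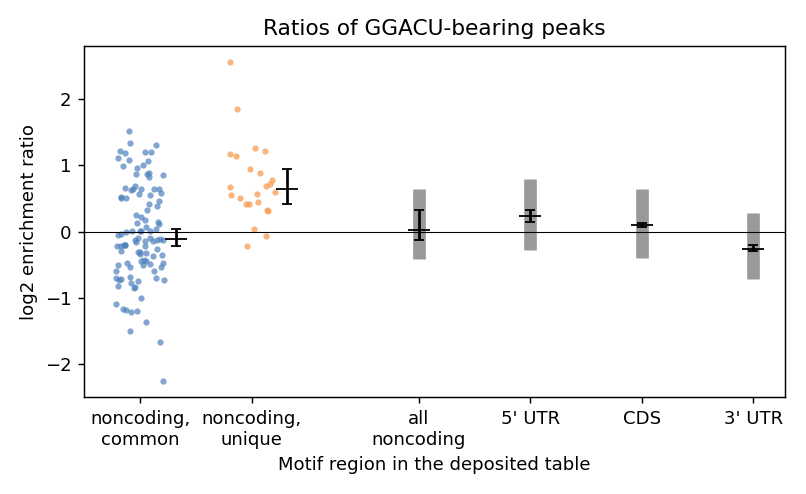
Enrichment ratio of knockdown over control on the log2 scale (y axis) for peaks with GGACU in the authors' deposited table. Points are the 106 common and 24 unique noncoding lines, grey bars the middle 50% of lines by motif region, and black marks medians with 95% intervals. Unique noncoding lines had a median of 0.64 and common ones of -0.11.

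With distance of the first motif from the 5′ end, medians fell while 2-fold higher counts had no steady order, and neither was tested. In the authors' deposited table the median log2 ratio was 0.32 for 31 lines whose first motif lay within 500 bases of the 5′ end (-0.14 to 0.95), 0.01 for 51 lines up to base 1500 (-0.16 to 0.39) and -0.02 for 48 lines beyond (-0.29 to 0.57). At least 2-fold higher were 8 of the 31 early lines, 1 of the 51 middle lines and 8 of the 48 late lines, beside 16.2% of all lines in the authors' deposited table. The intervals of the medians overlap one another.

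Gene columns and ratio columns are sorted apart in the table, so a ratio has a gene only where the motif positions identify it. Several positions on 1 line identified 3 noncoding peaks. In the authors' deposited table DKFZP586I1420, listed as a transcribed pseudogene, had a log2 ratio of 1.20 for the peak at 1466-1932, with motifs at 1518, 1741 and 1927, which no other noncoding peak spans. TTN-AS1 had -0.07 for the peak at 1531-1640, and PMS2CL, a pseudogene of the mismatch repair gene PMS2, had -0.50 for the peak at 419-592. The median of the 3 was -0.07. The values of these transcripts thus lay on both sides of 0.

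Single positions identified 25 more peaks, with less certainty. Of these, 24 came from sequence, and motif positions moved by fixed shifts still gave 2.45 joins on average and at most 4, so 10.2% of them may be wrong. In the authors' deposited table the 25 ran from -1.18 to 2.56 with a median log2 ratio of -0.04, and 3 lay past 2-fold higher and 3 past 2-fold lower. With the 3 above, 28 joined peaks had a median of -0.05.

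MALAT1 gave 4 of these joins, at the motifs printed above. The authors' deposited table gave log2 ratios of -0.04 at adenosine 1605, 0.12 at 2720, -0.70 at 3907 and 0.04 at 7563, of which only the last was called unique. None of the 4 MALAT1 values passed 2-fold. The motif at adenosine 7563 ends at the last base of its peak.

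FENDRR was lower in both joined peaks of the authors' deposited table, with log2 ratios of -0.75 and -1.01. The lowest joined value there was -1.18 for LOC150776, a pseudogene of SMPD4. LINC-ROR, a long noncoding RNA known from pluripotent stem cells, stood at 0.26. The alike windows of NBPF25P had ratios of 0.22 and 0.32.

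The highest joined values in the authors' deposited table were 2.56 for LOC100287015, which had a further joined peak at 0.46, and 1.86 for PPP1R2P3, a copy of a phosphatase inhibitor gene that the current RefSeq table lists as protein coding under the symbol PPP1R2B. Both of the highest were called unique. DKFZP586I1420, given above, followed at 1.20, PKD1P6-NPIPP1, a readthrough, at 1.11 and LINC00648 at 0.86, all called common. FAM95C stood at -0.70 and SMG1P7, a pseudogene of the kinase gene SMG1, at -0.51. The joined peaks of PPP1R2P3, PKD1P6-NPIPP1, LOC150776 and NBPF25P are among the near copies of coding transcripts given above. Their ratios thus cannot be assigned to the noncoding transcript alone. Some joined peaks were not searched for copies, among them those of PMS2CL and DKFZP586I1420. PMS2CL has a peak past its GENCODE end, and DKFZP586I1420 had no matched sequence. The same limit may therefore hold for their ratios.

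TRMT10A CLIP clusters were listed for few of the genes with noncoding m6A peaks. A CLIP cluster is a stretch of crosslinked reads, with its count of conversion events. Of 314 genes, 13 were listed in each replicate and 12 in both (3.82%, 95% interval 2.20 to 6.56). Of the 8967 coding genes with peaks, 321 were listed in replicate 1, 521 in replicate 2 and 196 in both (2.19%, 1.90 to 2.51). Of the 12, 5 are structured RNAs. Without structured RNAs 7 of 308 genes were in both (2.27%, 1.11 to 4.62). In each single replicate 8 of the 308 were listed (2.60%, 1.32 to 5.04), compared with 3.58% of coding genes in replicate 1 (3.21 to 3.98) and 5.81% in replicate 2 (5.34 to 6.31). In the other direction, 12 of 224 noncoding genes listed in both CLIP replicates had an m6A peak (5.36%, 3.09 to 9.13).

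Ribosomal RNA held most CLIP events and also carried m6A peaks. The labels' protocols name poly(A) selection and removal of ribosomal RNA, without saying whether this held for CLIP. RNA28S5, the large-subunit RNA, had 129762 and 179951 events in replicates 1 and 2, and 4 m6A peaks. RNA18S5, the small-subunit RNA, had 66928 and 107424 events and 3 peaks. RNA45S5, the precursor of both, had 60238 and 90201 events and 6 peaks. These entries share sequence, so their counts and peaks are not separate signals. Of the RNA28S5 clusters, 203 of 340 in replicate 1 and 222 of 360 in replicate 2 were labelled intronic, against 0 for RNA18S5 and RNA45S5. The RNA28S5 entry thus does not stand for clusters on its exon alone.

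The 28S peaks recurred in the precursor. At the offset of the current RefSeq annotation all 4 of them overlapped a precursor peak, such as 2438-2622 with 10361-10545 and 4242-4459 with 12162-12379. Of the 18S peaks, the last (1678-1832) overlapped precursor peak 5351-5486, and those at 1091-1240 and 1284-1484 overlapped none. 18S RNA carries an m6A close to its 3′ end as background, as 28S RNA does in its latter part.

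Other structured RNAs had 1 peak each. RN7SL1, the 7SL RNA around which the signal recognition particle is built, had 5 clusters in each replicate, with 8364 and 12395 events. Its m6A peak lay at 171-270. The cluster with 7624 and 11378 events lay at bases 97-131 and 97-132, outside the peak, and clusters at 182-237 (150 events) and 254-282 (563 events) in replicate 1 lay on it. Near-identical 7SL copies make the assignment to RN7SL1 uncertain.

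RPPH1, the catalytic RNA of ribonuclease P, had 6 clusters in each replicate with 866 and 1099 events. Its peak lay at 161-275. The largest RPPH1 cluster of each replicate, at 67-97 with 315 events and at 67-121 with 371 events, lay outside the peak. Clusters at 213-237 (82 events) and 211-237 (160 events) lay on it. The cluster of largest count lay outside the peak in both of these RNAs and both replicates. In each RNA, 2 clusters of replicate 1 and 3 of replicate 2 overlapped the peak. The peak covered 100 of 299 bases of RN7SL1 and 115 of 333 bases of RPPH1, so most of each RNA lay outside it. Whether clusters keep apart from peaks was not tested. SCARNA17, a Cajal body RNA, had a peak at 281-420 and no cluster listed under its gene.

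**Figure D5:**
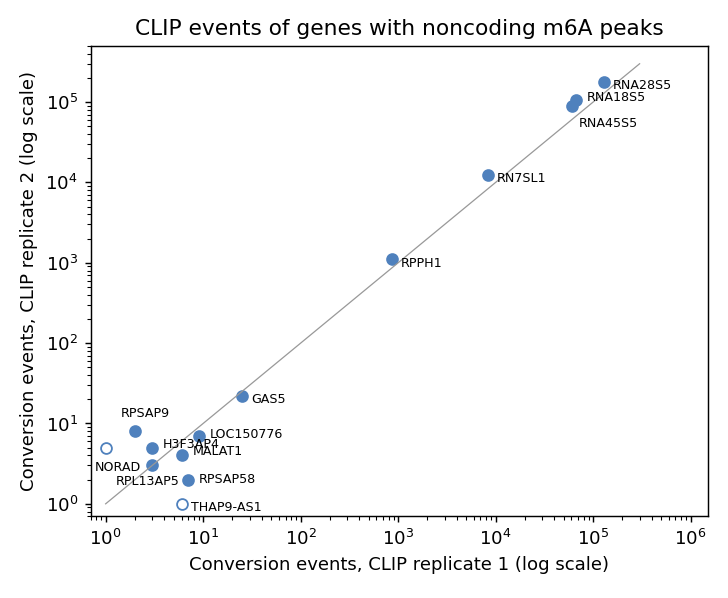
Conversion events of TRMT10A CLIP replicate 1 (x axis, log scale) and replicate 2 (y axis, log scale) for the 14 genes with a noncoding m6A peak listed in at least 1 replicate. Filled points were listed in both, open points in 1 and are drawn at 1 on the axis where they were not listed, and the line marks equal counts. RNA28S5 was highest and 8 of the 9 genes outside structured RNAs had fewer than 10 events in each replicate.

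MALAT1 had 3 clusters in replicate 1 and 2 in replicate 2, with 6 and 4 events, all in its exon. The clusters at bases 5532-5555 and 5521-5544 overlapped between replicates. None of the 5 lay on an m6A peak, but peaks covered only 16.0% of the transcript. So few clusters cannot show whether they keep apart from peaks, and this was not tested. The distances to the nearest peak were 288, 512 and 973 bases in replicate 1 and 61 and 501 bases in replicate 2. The MALAT1 clusters had 2 events each, the lowest number in the tables.

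NORAD had 1 cluster, in replicate 2 alone, with 5 events at bases 148-168, inside its first peak. THAP9-AS1, an antisense RNA, had 2 intronic clusters with 6 events in replicate 1 alone. LOC150776 had 9 and 7 events, all intronic. The gene copies RPSAP9 (2 and 8 events), RPSAP58 (7 and 2), H3F3AP4 (3 and 5) and RPL13AP5 (3 and 3) had exonic clusters. The table describes them as pseudogenes, and the current RefSeq table lists RPSAP58 as protein coding. Their parents are the ribosomal protein genes RPSA and RPL13A and the histone gene H3F3A, so that reads may be shared with parents.

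snoRNA hosts carried m6A peaks on the spliced RNA, and most TRMT10A clusters within their spans were listed under small RNAs. Peaks of a host are listed by position in its spliced transcript, so they could not lie in its introns. Hosts are also defined by their snoRNAs, so this contrast is no result about exons and introns. All 12 had 1 or 2 peaks, such as SNHG1 at 65-180 and 331-500, SNHG16 at 400-610 and 2091-2250, SNHG11 at 49-205 and 241-370, and GAS5, a growth arrest RNA, at 75-220. LRRC75A-AS1 had 2, and SNHG5, SNHG6, SNHG12, SNHG17, SNHG20, EPB41L4A-AS1 and LINC00888 had 1 each. Of the snoRNA host list, 11 of 41 entries had a peak, and LINC00888 was added by its current symbol.

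Only GAS5 was listed under its own name in the CLIP tables, with 1 intronic cluster of 25 and 22 events. By position, 9 of the 12 host genes held clusters on the same strand, the same 9 in both replicates. Over all members outside structured RNAs with a GENCODE span, 21 of 245 held a cluster in at least 1 replicate. The host spans held 34 clusters in each replicate, with 474 and 606 events. Of these, 33 in each, with 449 and 584 events, were listed under a snoRNA or Cajal body RNA. GAS5 held 7 and 8 clusters, SNHG1 9 and 8, SNHG12 4 and 5, and SNHG20, through SCARNA16, 2 and 1.

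Most snoRNAs in the CLIP tables were listed outside these hosts. Symbols of snoRNAs and Cajal body RNAs numbered 131 in replicate 1 and 151 in replicate 2, of which 23 and 24 lay in a host with m6A peaks. Of 113 listed in both, 22 did. Outside the hosts, the readthrough transcripts ATP6V1G2-DDX39B and SENP3-EIF4A1 also spanned clusters listed under snoRNAs, with 24 and 17 events for the first and 2 and 15 for the second in replicates 1 and 2. LINC01138 held clusters with 107 and 135 events that were listed under small nuclear RNA names such as RNVU1-10.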

How the data were processed

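HEK293T RNA was analysed in 6 samples, 4 of the m6A experiment and 2 of TRMT10A CLIP, grouped by their titles. Per the labels' protocols, RNA was poly(A)-selected and depleted of ribosomal RNA, without saying whether this held for CLIP. The submitters' processing notes name hg38, TopHat2 and Cuffdiff. The sources used here name no peak or cluster caller. Ratios of the m6A table are log2 enrichment ratios as deposited by the authors, and the CLIP tables hold deposited counts of conversion events and clusters, per the file headers. Gene and ratio columns of the m6A table are sorted apart, so no ratio was read beside a gene.

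Accessions were matched to GENCODE release 29 transcripts (241 of 315 noncoding accessions, 454 of 606 peaks) and gene identifiers to RefSeq GRCh38.p14. Of the 454, 41 end past the GENCODE length. Widths count both ends. Near copies were found with blastn 2.17.0 on the plus strand at 95% identity over 80% of the peak. A ratio was joined to a peak where its listed motifs were exactly the GGACT of 1 noncoding peak, or where 1 noncoding peak alone spans them, and false joins were counted at positions shifted by up to 40 bases in steps of 4. The joining was tested on simulated data. CLIP genes were matched by gene identifier. Clusters within a host were matched by the GENCODE gene span and strand.

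Shares carry 95% Wilson intervals and medians carry order-statistic intervals. Both treat peaks as independent, and they cover counting error only. With 1 library per arm there is no test and no p-value. Whether the CLIP replicates are separate cultures is not stated in the labels. The design planned GGACT from sequence, but GENCODE and RefSeq starts often differ, so the file's motif column was used and the sequence became an alternative. The region Noncoding was found after seeing the data. The members and lists were chosen with earlier results of these data known. After peaks had been seen, 7 entries that are no host genes or are aliases were removed from the lists, among them HCG11 (3 peaks) and LINC-PINT (1 peak). Named genes are the 12 with most peaks, those in both CLIP replicates, up to 6 members of each list, the highest and lowest joined ratios and the 4 genes of each class with most peaks. HCG11, GTF2IP1, GTF2IP4, SLX1A-SULT1A3, SLX1B-SULT1A4, SCARNA17 and single snoRNA hosts were singled out after their values were seen. Some results that these rules name are not reported here.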

Additional observations from a re-analysis of the deposited data

How the results depend on the processing

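The count of 606 noncoding peaks stayed within 1.5 times and the median of 1 peak per transcript did not move under the alternatives run for them, such as merging peaks within 50 bases (538 peaks) and leaving out near copies (462 peaks, chosen after seeing the data). The median relative position was 0.301 when the peak start replaced its centre, which by construction lies nearer the 5′ end. The GGACU share rose from 21.5% to 57.9% with GGAC and any next base and to 94.5% with DRACH, which are broader patterns. The share of genes in both CLIP replicates fell from 3.82% to 1.91% when clusters needed at least 5 events. With either CLIP replicate left out it was 4.14% for both. The median log2 ratio of Noncoding lines, 0.02, was -0.11 for lines called common and 0.09 for lines with a single motif, within its interval, both chosen after seeing the data. The joined median over 3 peaks, -0.07, was -0.05 with single-motif joins and 0.35 with common peaks alone, where 2 peaks remained, so its sign rests on few peaks.

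No paired analysis was possible because no result comes from a test and the m6A arms have 1 library each. Depth of the m6A libraries is unknown, so differences between ratios cannot be set against any spread, and CLIP clusters of 2 events, the fewest listed, limit what can be said of MALAT1 and the pseudogenes.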
